A study of Rattus norvegicus with 52 samples.

Results

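The proteasome genes of sorted rat mammary cells are described here. They were chosen by symbol: every row of the count tables whose name began with Psma, Psmb, Psmc, Psmd, Psme, Psmf or Psmg followed by a number, which gave 49 of 17356 gene rows. By their known roles, 7 encode alpha subunits of the 20S core, 4 its non-catalytic beta subunits and 3 its constitutive catalytic subunits (Psmb5, Psmb6 and Psmb7). Another 5 are the interferon-inducible immunoproteasome genes (Psmb8, Psmb9, Psmb10, Psme1 and Psme2), 6 the 19S ATPases, 11 the other 19S subunits, 3 the remaining activators and the inhibitor (Psme3, Psme4 and Psmf1) and 6 the assembly chaperones. The germ-cell and thymic core subunits Psma8 and Psmb11 make 2 more, and 2 rows matched by name only, Psma3l and Psmc3ip, the second a meiotic recombination factor.

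RNA was sequenced in 48 libraries of FACS-sorted mammary cells. In ACI rats, Cdkn1b+/+ and Cdkn1b-/- animals from crosses of heterozygotes were compared at 9 weeks (16 libraries), 4 weeks (11 libraries) and 6 weeks (9 libraries). At 9 weeks each genotype had 2 libraries of basal cells (BAS, Cd24+ Cd29high), mature luminal cells (LUM, Cd24+ Cd29low without Cd49b or PNA), PNA+ progenitors and Cd49b+ progenitors, and the PNA+ and Cd49b+ libraries together are called luminal progenitors (LP). At 4 and 6 weeks LUM was gated on Cd24+ Cd29low alone, and in the E2 experiment the LUM titles name CD49b and PNA, so LUM there is not the same gate as at 9 weeks. At 4 weeks there were 3 libraries each of Cdkn1b+/+ BAS, Cdkn1b+/+ LUM and Cdkn1b-/- LUM and 2 of Cdkn1b-/- BAS. At 6 weeks there were 3 libraries of Cdkn1b+/+ BAS and 2 each of Cdkn1b+/+ LUM, Cdkn1b-/- BAS and Cdkn1b-/- LUM. A further 12 libraries came from BAS and LUM cells of Control and E2-treated rats, with 2 libraries per cell type and treatment in the tumor-susceptible ACI strain and 1 in the resistant BN strain. The deletion alleles of Cdkn1b were made in SD zygotes and backcrossed to ACI, so p27 was lost in every cell of the animal and not in the epithelium alone. Which allele the sequenced animals carried is not given in the sources used here. E2 was given by implant for 3 weeks from the age of 9 weeks. The titles of the BN libraries carry a pair of animal numbers each. The questions were whether the proteasome genes differed between epithelial populations, with loss of p27, with age, with E2 and between strains.

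The 26S proteasome degrades proteins tagged with ubiquitin. Its 19S cap recognises and unfolds the substrate, and the beta subunits inside the 20S core cut it. Where interferon signals, Psmb8, Psmb9 and Psmb10 take the places of Psmb5, Psmb6 and Psmb7 in newly built cores, and Psme1 and Psme2 form the PA28 cap, which favours peptides suited to MHC class I. The cell cycle inhibitor p27, the product of Cdkn1b, is itself a textbook proteasome substrate.

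The promoters of the 3 immunoproteasome catalytic genes and of the 3 constitutive genes they replace are shown because these sets are compared throughout the results. RefSeq held a promoter, 250 bases before to 50 after the gene start in GRCr8, for 43 of the 49 genes. Capitals mark a match to GAAANNGAAA, an interferon-response-like motif, or to TGACNNNGC, an antioxidant-response-like motif, each read on both strands. Psmb8 lies at chr20:4656982-4657281 on the minus strand and Psmb9 at chr20:4668750-4669049 on the plus strand. Psmb10 lies at chr19:50743243-50743542 on the minus strand, Psmb5 at chr15:32047330-32047629 on the minus strand, Psmb6 at chr10:55737638-55737937 on the plus strand and Psmb7 at chr3:42827421-42827720 on the minus strand.
Psmb8: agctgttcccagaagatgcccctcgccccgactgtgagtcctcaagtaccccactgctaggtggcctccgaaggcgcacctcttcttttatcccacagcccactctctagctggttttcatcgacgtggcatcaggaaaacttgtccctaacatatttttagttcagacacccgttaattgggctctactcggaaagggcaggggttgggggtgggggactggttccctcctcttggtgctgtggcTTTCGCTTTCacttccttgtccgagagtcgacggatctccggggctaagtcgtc
Psmb9: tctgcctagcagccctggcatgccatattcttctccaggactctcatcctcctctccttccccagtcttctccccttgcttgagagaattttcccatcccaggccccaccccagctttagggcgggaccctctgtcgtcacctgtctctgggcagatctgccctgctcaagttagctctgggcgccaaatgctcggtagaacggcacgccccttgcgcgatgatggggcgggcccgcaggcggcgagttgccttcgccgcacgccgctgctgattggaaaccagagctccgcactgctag
Psmb10: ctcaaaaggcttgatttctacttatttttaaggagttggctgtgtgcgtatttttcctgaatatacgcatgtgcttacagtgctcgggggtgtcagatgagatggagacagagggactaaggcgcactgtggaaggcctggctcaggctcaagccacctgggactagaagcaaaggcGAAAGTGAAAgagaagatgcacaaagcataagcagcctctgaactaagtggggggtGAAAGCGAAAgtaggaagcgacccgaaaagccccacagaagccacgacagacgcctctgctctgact
Psmb5: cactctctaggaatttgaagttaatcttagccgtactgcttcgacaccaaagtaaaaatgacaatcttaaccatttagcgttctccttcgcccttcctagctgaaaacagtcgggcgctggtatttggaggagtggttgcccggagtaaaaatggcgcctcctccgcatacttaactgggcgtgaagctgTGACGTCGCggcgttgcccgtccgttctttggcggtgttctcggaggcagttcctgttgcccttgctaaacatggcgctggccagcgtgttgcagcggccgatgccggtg
Psmb6: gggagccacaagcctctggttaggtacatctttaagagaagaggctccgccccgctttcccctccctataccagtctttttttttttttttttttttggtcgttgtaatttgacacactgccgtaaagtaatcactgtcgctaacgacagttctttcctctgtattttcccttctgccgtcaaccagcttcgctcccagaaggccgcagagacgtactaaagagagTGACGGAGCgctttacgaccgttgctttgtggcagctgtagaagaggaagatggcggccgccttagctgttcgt
Psmb7: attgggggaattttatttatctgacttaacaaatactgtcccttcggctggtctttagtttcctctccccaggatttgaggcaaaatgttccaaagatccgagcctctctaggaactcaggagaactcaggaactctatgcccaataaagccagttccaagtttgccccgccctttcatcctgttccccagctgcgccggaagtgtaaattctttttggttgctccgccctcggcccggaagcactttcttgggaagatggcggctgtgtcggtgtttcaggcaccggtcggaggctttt
GAAANNGAAA was found in 3 of the 5 immunoproteasome promoters (Psmb8, Psmb10 and Psme2) and in 3 of 27 promoters of constitutive subunits (Psma4, Psmb3 and Psmd7), while 3.92% of all 33469 promoters held it. TGACNNNGC was found in 0 of the 5 immunoproteasome promoters and in 6 of the 27 constitutive ones (Psma3, Psmb2, Psmb5, Psmb6, Psmd1 and Psmd3), against 12.1% of all promoters. A match is a run of letters and was not tested as a binding site.

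Library depth, counted as reads assigned to genes, was 21545344 to 33859550 at 9 weeks, 14674040 to 23045345 at 4 weeks, 7985619 to 16390460 at 6 weeks and 13659389 to 25280421 in the E2 experiment. The proteasome genes together took 0.369% to 1.23% of these counts. Cdkn1b itself, given as CPM (counts scaled to a common library size), lay between 1.95 and 4.73 in the 8 Cdkn1b-/- libraries of 9 weeks and between 7.14 and 17.2 in the 8 Cdkn1b+/+ libraries. The genotypes also did not overlap in BAS at 4 weeks (10.2 and 10.6 against 14.8 to 38.9 CPM), but they overlapped in LUM at 4 weeks and in both cell types at 6 weeks, so there the gene does not check the genotype labels. All 10 basal markers were higher and all 7 luminal markers lower in BAS at 9 and at 4 weeks, against 10 and 5 at 6 weeks. Among the E2 and Control libraries 4 and 2 of them were called. Some libraries stood apart. Cdkn1b-/- LUM libraries 1 and 2 of 6 weeks held 339 and 1554 CPM of summed myeloid markers against 19.8 and 88.9 in the Cdkn1b+/+ LUM libraries. In Cdkn1b+/+ BAS library 3 of 6 weeks, lymphoid markers summed to 105 CPM, and in the E2-treated ACI BAS library 1 only 7126 genes had 10 or more counts. Its basal markers summed to 2970 CPM, near the 2593 of the BN Control LUM library, and fibroblast markers summed to 5006 CPM in the E2-treated ACI LUM library 1. They summed to 16298 CPM in the E2-treated BN BAS library, above its basal sum of 15103. The BN Control BAS library held 698 CPM of myeloid markers.

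Of the 49 genes, 47 passed the filter on low counts at 9 weeks and 46 in the other experiments, where Psma8 dropped out. Psma3l and Psmb11 were tested nowhere, with at most 15 and 21 counts in any library. Psmb8, Psmd10 and Psmf1 had 0 counts in 1 library each and Psmc3ip in 5 libraries. Psmb8 was at 0 in the E2-treated ACI BAS library 1, which at 3 counts allows up to 0.128 CPM (counting error only). CPM is not corrected for transcript length, so levels are compared within a gene, not between genes. Differences are log2 fold changes ± SE from edgeR's quasi-likelihood test, with p-values adjusted by Benjamini-Hochberg over all genes tested and called under 0.05.

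At 4 weeks the 3 immunoproteasome catalytic genes were lower in BAS than in LUM, while no constitutive subunit was called. Psmb8 was at 20.7, 17.6 and 16.5 CPM in the Cdkn1b+/+ BAS libraries and at 33.4 and 17.0 in the Cdkn1b-/- ones. In LUM it was at 45.5, 63.4 and 57.2 CPM in Cdkn1b+/+ and at 132.3, 81.8 and 66.2 in Cdkn1b-/-. Every LUM library of 4 weeks thus lay above every BAS library, with a log2 difference of -1.69 ± 0.26 (BAS minus LUM, n = 5 and 6, edgeR adjusted p = 0.00024). Psmb9, the partner of Psmb8 in the induced core, was at 43.0 to 49.1 CPM in Cdkn1b+/+ BAS and at 123.7 to 161.6 in Cdkn1b+/+ LUM. Its difference was -1.73 ± 0.31 (edgeR adjusted p = 0.00078), again without overlap of the cell types. Psmb10 differed by -1.17 ± 0.31 (edgeR adjusted p = 0.011), but Cdkn1b-/- BAS library 1, at 91.8 CPM, reached into the LUM range, which began at 67.3. Those 3 were the only genes called of 46, 6.52%, against 35.1% of all 12082 genes. Psme1 (-0.69 ± 0.29) and Psme2 (-0.88 ± 0.35), which encode the PA28 cap, had the same sign but did not pass the test (edgeR adjusted p = 0.089 and 0.069). The constitutive partners differed less, Psmb5 by -0.25 ± 0.33, Psmb6 by -0.13 ± 0.34 and Psmb7 by -0.26 ± 0.23. Psmb8, Psmb9 and Psmb10 were called under each of 16 alternatives. With the rat as a replicate block, 8 genes were called (42.8% of all genes), which added Psme2, Psme3, Psmf1 and Psmd11, all lower in BAS, and the chaperone Psmg1, higher in BAS. Without the BAS and LUM libraries numbered 1 of Cdkn1b-/-, where these genes were highest, 11 genes were called, all lower in BAS and all 5 immunoproteasome genes among them. Summed myeloid markers were 26.0 to 125 CPM in BAS and 46.1 to 151 in LUM, and their part in the result was not tested. In bulk libraries fewer cells of a type and less RNA per cell cannot be told apart.

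**Figure D1:**
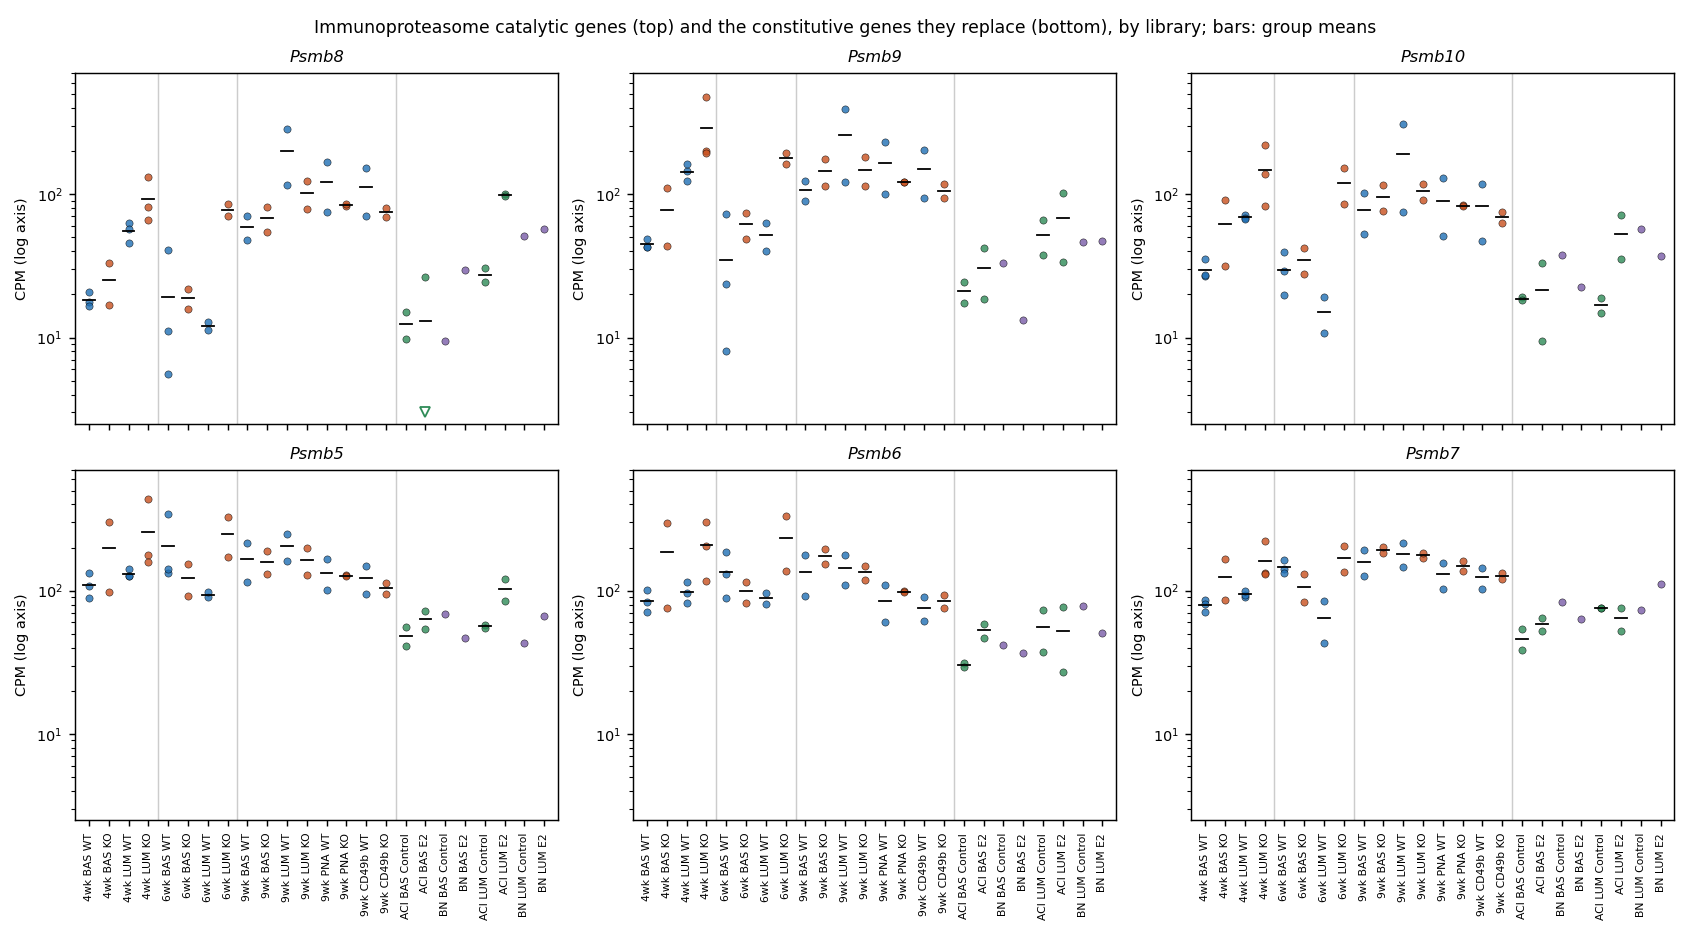
CPM on a log axis (y) in each library for the immunoproteasome catalytic genes Psmb8, Psmb9 and Psmb10 (top) and for Psmb5, Psmb6 and Psmb7 (bottom). Columns are groups by age, cell type and genotype or, in the E2 experiment, by strain, cell type and treatment. Points are libraries, bars are group means and an open triangle is a library under the axis. At 4 weeks all LUM points of Psmb8 and Psmb9 lie above all BAS points, which is not seen for Psmb5 or Psmb6. WT (blue) is Cdkn1b+/+ and KO (orange) is Cdkn1b-/-.

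At 9 weeks 8 of 47 genes (17.0%) differed between BAS and LUM, against 38.7% of all 12809 genes. Psmb8 was the single immunoproteasome gene among them, at 54.2 and 81.7 CPM in Cdkn1b-/- BAS and 70.8 and 47.6 in Cdkn1b+/+ BAS. In LUM it was at 79.5 and 123.5 CPM in Cdkn1b-/- and at 286.7 and 116.2 in Cdkn1b+/+, so that the cell types nearly separated and Cdkn1b+/+ LUM library 1 was far above the rest. The difference was -1.02 ± 0.33 (edgeR adjusted p = 0.025, n = 4 and 4). Without that library it was -0.64 and no longer called (edgeR adjusted p = 0.13), and the call was also lost without Cdkn1b-/- LUM library 2, Cdkn1b-/- BAS library 1 or Cdkn1b+/+ BAS library 2. Cdkn1b+/+ LUM library 1 held the highest myeloid marker sum of the experiment, 425 CPM against 62.0 to 345 in the others. Whether other cells contributed was not tested. Psmb9 (-0.50 ± 0.36), Psmb10 (-0.57 ± 0.41), Psme1 (-0.02 ± 0.20) and Psme2 (-0.42 ± 0.33) did not pass the test.

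The genes higher in BAS at 9 weeks were of the core, the cap and an assembly factor. Psmb4, a non-catalytic core subunit, was at 242.6 to 347.4 CPM in BAS and 176.9 to 205.7 in LUM (0.67 ± 0.13, edgeR adjusted p = 0.0015). Psmd9, a chaperone of the 19S base, was at 38.5 to 62.8 CPM against 30.9 to 37.3 (0.70 ± 0.14, edgeR adjusted p = 0.0013), and Psmd7, a lid subunit, differed by 0.51 ± 0.16. For Psmb4 and Psmd9 no BAS library fell within the LUM range. Lower in BAS besides Psmb8 were an activator, an inhibitor and a pair of chaperones. The nuclear activator Psme4 was at 22.9 to 31.6 CPM in BAS and 44.5 to 87.9 in LUM (-0.90 ± 0.32), and the inhibitor Psmf1 at 40.1 to 59.0 against 70.3 to 99.9 (-0.59 ± 0.19). The 19S chaperones Psmd10 (-0.60 ± 0.22) and Psmd5 (-0.38 ± 0.13) were lower in BAS as well. With genotype and number as a replicate block, 18 genes were called (54.1% of all genes), 10 higher and 8 lower in BAS. The 10 added by the block included Psma1, Psma7, Psmb2, Psmb6, Psmd1 and Psmd3, all higher in BAS, and Psmb10 (-0.45) and Psme2 (-0.38), lower. Leaving out any of the 8 libraries left 3 to 5 calls, and 5 were left without the filter on low counts. Psmb4 and Psmd9 were called under all 12 alternatives, and each of the other 6 lost its call under 4 to 8 of them.

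At 6 weeks and in the E2 experiment edgeR called 0 of 46 genes between BAS and LUM, where 5.65% and 2.04% of all genes were called. At an unadjusted p under 0.05 there were 3 and 7, and DESeq2 called 3 and 6. The 3 of 6 weeks were Psme1, lower in BAS, and Psmd3 and Psmd7, higher. The 6 of the E2 experiment were Psma3, Psma6, Psmb9, Psmd11, Psmd14 and Psme1, all lower in BAS. Psme1 was at 162.9 to 196.5 CPM in the 5 BAS libraries of 6 weeks and at 244.1 to 471.9 in the 4 LUM libraries, with no overlap. Without Cdkn1b+/+ BAS library 3 and Cdkn1b-/- LUM library 2 of 6 weeks, edgeR called 1 gene, Psmb9 (-1.65), lower in BAS, and without Cdkn1b-/- LUM library 1 it called 4 (Psme1 and Psme4 lower, Psmd5 and Psmc3ip higher). All 5 immunoproteasome genes had a negative sign in each of the 4 experiments. They varied together from library to library, so their signs are not separate results, and at 9 weeks all 5 stayed negative under only 7 of 12 alternatives. Their medians were -1.17 at 4 weeks, -0.73 at 6 weeks, -0.50 at 9 weeks and -0.67 in the E2 experiment. The medians of Psmb5, Psmb6 and Psmb7 were -0.25, 0.02, 0.12 and -0.40, and those of all genes tested -0.01, 0.08, -0.04 and -0.06. At 9 weeks the immunoproteasome median ranged from -0.79 to 0.04 over the alternatives, the upper end without Cdkn1b+/+ LUM library 1, and it stayed negative under each alternative in the other experiments.

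**Figure D2:**
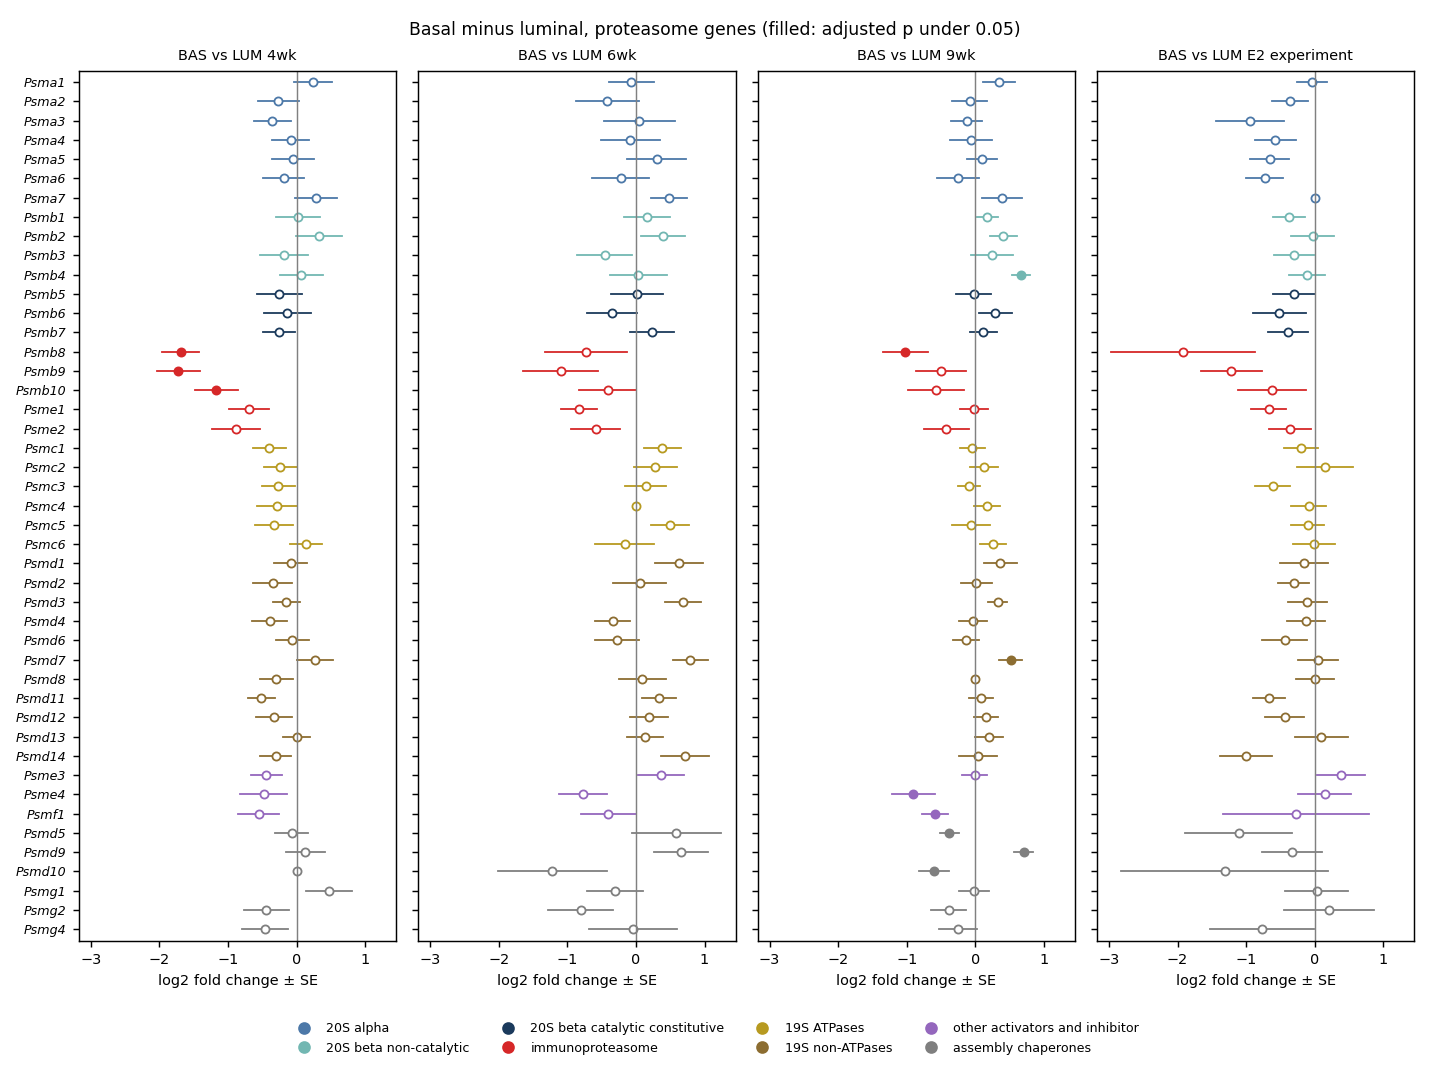
Log2 fold change, BAS minus LUM, ± SE (x) for each proteasome gene (y, colored by class) at 4, 6 and 9 weeks and in the E2 experiment. Filled points passed an adjusted p under 0.05, and points without a bar had a fold change too close to 0 for an SE. At 4 weeks the 3 filled points are Psmb8, Psmb9 and Psmb10, and the E2 and 6-week panels hold none.

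The ratio of the induced to the constitutive subunit within a library removes a change shared by both genes. The log2 ratio of Psmb8 to Psmb5 was -3.15 to -2.39 in BAS and -1.71 to -0.98 in LUM at 4 weeks. At 9 weeks it was -1.60 to -1.20 in BAS and -0.69 to 0.21 in LUM. The cell types did not overlap at either age. The ratio of Psmb9 to Psmb6 did not overlap at 4 weeks, at most -0.72 in BAS and at least -0.04 in LUM, but it overlapped at 9 weeks, at -0.51 to -0.04 in BAS and -0.07 to 1.16 in LUM. The ratio of Psmb10 to Psmb7 likewise separated the cell types at 4 weeks, at most -0.84 in BAS and at least -0.65 in LUM, and overlapped at 9 weeks, at -1.27 to -0.80 and -0.94 to 0.51. All of these ratios overlapped between cell types at 6 weeks and in the E2 experiment.

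Between luminal progenitors and mature LUM cells 5 of 47 genes were called at 9 weeks (10.6%, against 23.4% of all genes), all 5 lower in LP. Psmb4 was at 125.31 ± 11.8 CPM in LP and 196.31 ± 13.4 in LUM (mean ± SD, n = 8 and 4), a difference of -0.61 ± 0.11 (edgeR adjusted p = 0.0040) without overlap. Psmb6, a constitutive catalytic subunit, differed by -0.65 ± 0.21, Psmb1, another core subunit, by -0.45 ± 0.13 and Psme1 by -0.54 ± 0.17. The germ-cell subunit Psma8 had 12 counts in all 8 LP libraries together and 51 in the 4 LUM libraries (-3.54 ± 0.80). Only LUM libraries of 9 weeks held 10 or more counts of it. It thus passed the low-count filter through the population where it was higher, and its call is not independent support. The other named genes were negative too and did not pass the test: Psmb5 -0.54, Psmb7 -0.39, Psmb8 -0.52, Psmb9 -0.50, Psmb10 -0.76 and Psme2 -0.58. The members' median was -0.25, against -0.07 for all genes, and turned to 0.05 without Cdkn1b+/+ LUM library 1. DESeq2 called 12 genes, 11 of them lower in LP. With genotype and number as a replicate block, 31 genes were called (45.8% of all genes), 25 lower and 6 higher in LP, and all 8 of the catalytic and PA28 genes were among the lower. Leaving out 1 library gave 2 to 9 calls, with 2 without Cdkn1b-/- LUM library 2 or the Cd49b+ or PNA+ library 2 of Cdkn1b+/+. There were 3 without library 1 of either genotype in LUM, Cdkn1b-/- Cd49b+ library 1 or Cdkn1b-/- PNA+ library 2, 8 without Cdkn1b+/+ PNA+ library 1 and 9 without Cdkn1b+/+ LUM library 2. Psmb4 was called under all 16 alternatives, as was Psma8 with the limit given above. The calls on Psmb6 and Psme1 were each lost under 8 alternatives and that on Psmb1 under 5. Between PNA+ and Cd49b+ cells edgeR and DESeq2 called 0 of 46 genes, 0 also at an unadjusted p under 0.05, and 0% of all genes were called.

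With loss of p27 a single proteasome gene was called at 9 weeks, Psmd5, a chaperone of the 19S base that leaves the finished particle. In LP it was at 71.6, 69.3, 71.3 and 83.3 CPM in Cdkn1b-/- and at 47.0, 43.7, 47.97 and 44.9 in Cdkn1b+/+. The genotypes did not overlap, with a difference of 0.74 ± 0.13 (edgeR adjusted p = 0.010). This was 1 of 47 genes, 2.13%, against 3.4% of all genes. It was called under 14 of 15 alternatives, but those 14 all counted PNA+ and Cd49b+ libraries as separate samples. With these libraries summed by genotype and number, which left 2 samples a genotype, it was not called (edgeR adjusted p = 0.57). In LUM, Psmd5 was at 66.1 and 59.9 CPM in Cdkn1b-/- and at 40.6 and 35.2 in Cdkn1b+/+ (0.83 ± 0.19, edgeR adjusted p = 0.18), not called by edgeR but called by DESeq2 (adjusted p = 0.0032). In BAS the genotypes overlapped, at 36.5 and 30.9 against 38.2 and 30.2 CPM (0.02 ± 0.19). The difference between the LP and the BAS effects was 0.72 ± 0.23 (edgeR adjusted p = 0.59, DESeq2 adjusted p = 0.0498). PNA+ and Cd49b+ cells of a genotype carried the same numbers and varied together, so the 4 LP libraries per genotype may hold fewer than 4 independent animals. In RefSeq's GRCr8 annotation Psmd5 overlaps Cutal, which has no row in the count tables. The overlap is of whole gene spans, and whether the pair shared reads was not tested.

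**Figure D3:**
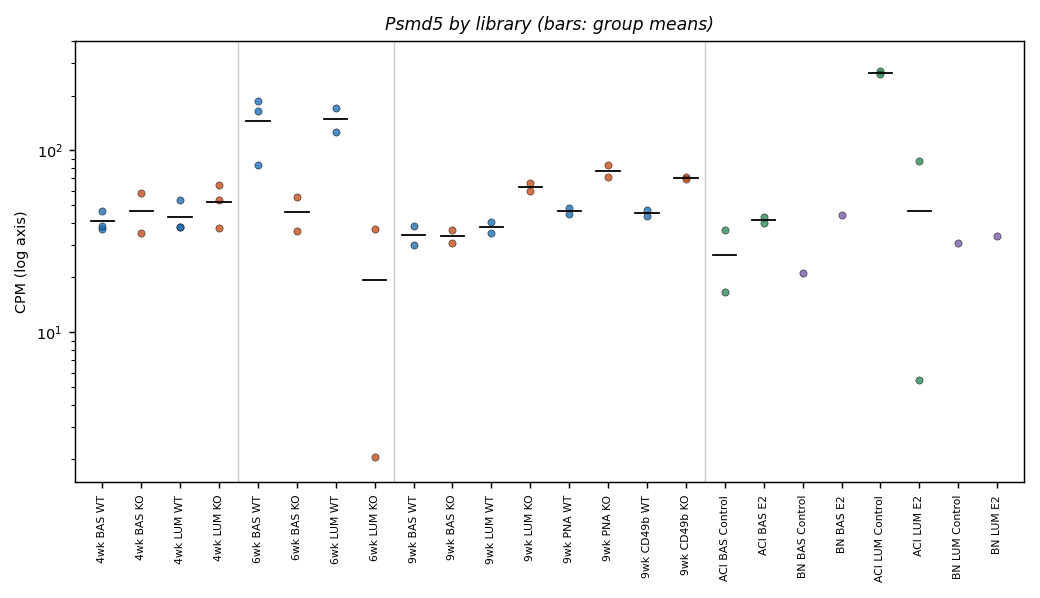
Psmd5 in CPM on a log axis (y) in each library, by group (x); points are libraries and bars group means. In the LP columns of 9 weeks the 4 Cdkn1b-/- libraries lie at 69.3 to 83.3 and the 4 Cdkn1b+/+ libraries at 43.7 to 47.97, while at 6 weeks the Cdkn1b+/+ libraries are the higher ones.

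At 4 weeks the Psmd5 differences were small and of the same sign, and at 6 weeks they had the opposite sign. In LUM of 4 weeks it was at 53.5, 64.4 and 37.2 CPM in Cdkn1b-/- and at 53.6, 38.0 and 37.8 in Cdkn1b+/+ (0.17 ± 0.32), and the BAS difference was 0.20 ± 0.36. At 6 weeks Cdkn1b+/+ LUM libraries were at 171.7 and 126.2 CPM and Cdkn1b-/- LUM libraries at 36.8 and 2.06 (-3.09 ± 1.03, edgeR adjusted p = 0.20, DESeq2 adjusted p = 0.028). In BAS of 6 weeks the genotypes were at 55.3 and 36.2 (Cdkn1b-/-) against 187.3, 164.0 and 82.6 CPM (-1.61 ± 0.92). Both Cdkn1b+/+ populations of 6 weeks were thus above the range of 30.2 to 53.6 CPM seen in the Cdkn1b+/+ libraries of 4 and 9 weeks. In the E2 experiment the 2 ACI Control LUM libraries were at 272.6 and 261.8 CPM, the E2-treated ACI LUM libraries at 5.48 and 86.8, and the BN LUM libraries at 30.8 (Control) and 33.6 (E2). Its E2 effect in LUM, -1.71 ± 1.17, did not pass the test (edgeR adjusted p = 1.00).

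The other proteasome genes did not differ significantly between genotypes at 9 weeks. In LUM and BAS edgeR called 0 of 47 genes (0.133% and 0.0546% of all genes), 1 each at an unadjusted p under 0.05, and DESeq2 called 1 (Psmd5) and 0. For the differences of the genotype effect, LP against BAS and LP against LUM, edgeR called 0 members (0% of all genes in both), 2 and 0 at an unadjusted p under 0.05, and DESeq2 1 and 0. The immunoproteasome genes were lower in Cdkn1b-/- in 5 of 5 cases in LP (median -0.35) and in LUM (median -0.72), and higher in 5 of 5 in BAS (median 0.37), none of them called. Psmb8 in LP was at 69.3, 80.6, 83.5 and 85.6 CPM in Cdkn1b-/- and at 153.8, 70.2, 168.1 and 74.8 in Cdkn1b+/+ (-0.50 ± 0.33, edgeR adjusted p = 0.45). Only the Cdkn1b+/+ libraries numbered 1 were high, and those numbered 2 lay within the Cdkn1b-/- range. Without Cdkn1b+/+ LUM library 1 the LUM median turned to 0.14. Psmb5 (-0.09 ± 0.25), Psmb6 (0.23 ± 0.24) and Psmb7 (0.18 ± 0.20) differed in LP by less than their SE.

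At 4 weeks no proteasome gene passed the test between genotypes, and most values were positive, in BAS through a single library. The median over 46 genes was 0.50 in BAS and 0.63 in LUM, with 42 and 40 genes positive, against medians of 0.02 and -0.10 over all 12082 genes. EdgeR called 0 members in either cell type (0% of all genes), 3 and 6 at an unadjusted p under 0.05, and DESeq2 called 0 in both. In LUM the 8 catalytic and PA28 genes had positive differences, with a median of 0.91 over the immunoproteasome genes and 0.85 over Psmb5, Psmb6 and Psmb7. These genes varied together from library to library, so their signs are not separate results. Psmb10 was at 220.6, 137.6 and 82.8 CPM against 71.4, 68.1 and 67.3 (0.99 ± 0.41), and Psme2 at 416.5, 204.7 and 139.5 against 95.0, 105.3 and 115.4 (1.16 ± 0.46), both with an edgeR adjusted p of 0.85. Psmb5, at 433.1, 178.2 and 158.1 against 141.8, 125.6 and 127.0 CPM, moved by a like amount (0.85 ± 0.44). Cdkn1b-/- LUM library 1 was the highest for each of these, and its Cdkn1b level, 17.7 CPM, was above all Cdkn1b+/+ LUM libraries. In BAS, Cdkn1b-/- library 1 was high and library 2 lay near the Cdkn1b+/+ libraries, as for Psmb6 at 295.1 and 75.8 CPM against 100.5, 83.4 and 71.4. Without library 1 the BAS median turned to -0.16, whereas the LUM median stayed between 0.38 and 0.81 over the alternatives.

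At 6 weeks no proteasome gene was called between genotypes either. EdgeR called 0 of 46 genes in BAS and in LUM (0% of all genes in both), 7 and 13 at an unadjusted p under 0.05. DESeq2 called 2 in BAS, Psmc5 and Psmd7, both lower in Cdkn1b-/-. In LUM it called 5, with Psma6, Psmb4, Psmb8 and Psmb10 higher and Psmd5 lower. The members' median was -0.54 in BAS and 0.61 in LUM, against 0.08 and -0.01 over all genes. Psmb10 in LUM was at 85.4 and 152.8 CPM in Cdkn1b-/- and at 10.8 and 19.3 in Cdkn1b+/+ (2.89 ± 0.66, edgeR adjusted p = 0.13). Psmb8 was at 70.7 and 85.6 CPM against 12.9 and 11.2 (2.58 ± 0.94, edgeR adjusted p = 0.23), and Psmb9 at 195.3 and 162.7 against 63.0 and 40.4 (1.66 ± 0.83). Psmb5, Psmb6 and Psmb7 differed by 1.31 ± 0.57, 1.30 ± 0.54 and 1.30 ± 0.48. In LUM the 8 catalytic and PA28 genes, Psme1 (0.53 ± 0.39) and Psme2 (0.65 ± 0.53) included, had positive differences, and they varied together from library to library. In BAS the same genes differed by -0.65 (Psmb5) to 0.93 (Psmb9), with Psmb8 at 0.08 ± 0.81. The Cdkn1b-/- LUM libraries also held more transcripts of the MHC class II and dendritic markers, 157 and 864 CPM in sum against 10.6 and 22.2. Endothelial markers, at 129 and 1413 against 0.24 and 7.09 CPM, and fibroblast markers, at 94.7 and 3462 against 12.9 and 29.4, were higher in them too. In library 2 of Cdkn1b-/- LUM 8160 genes had 10 or more counts, and luminal markers summed to 9514 CPM against 15280 to 23182 in the other LUM libraries of 6 weeks. The part of other cells in these values was not tested. Leaving out a LUM library left 1 of its genotype, so the calls of such fits for genotype in LUM are not given. Over the 9 alternatives the members' median in LUM lay between 0.16 and 0.74. Without the libraries that stood apart edgeR called 1 gene in BAS (Psmd5, -1.93).

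**Figure D4:**
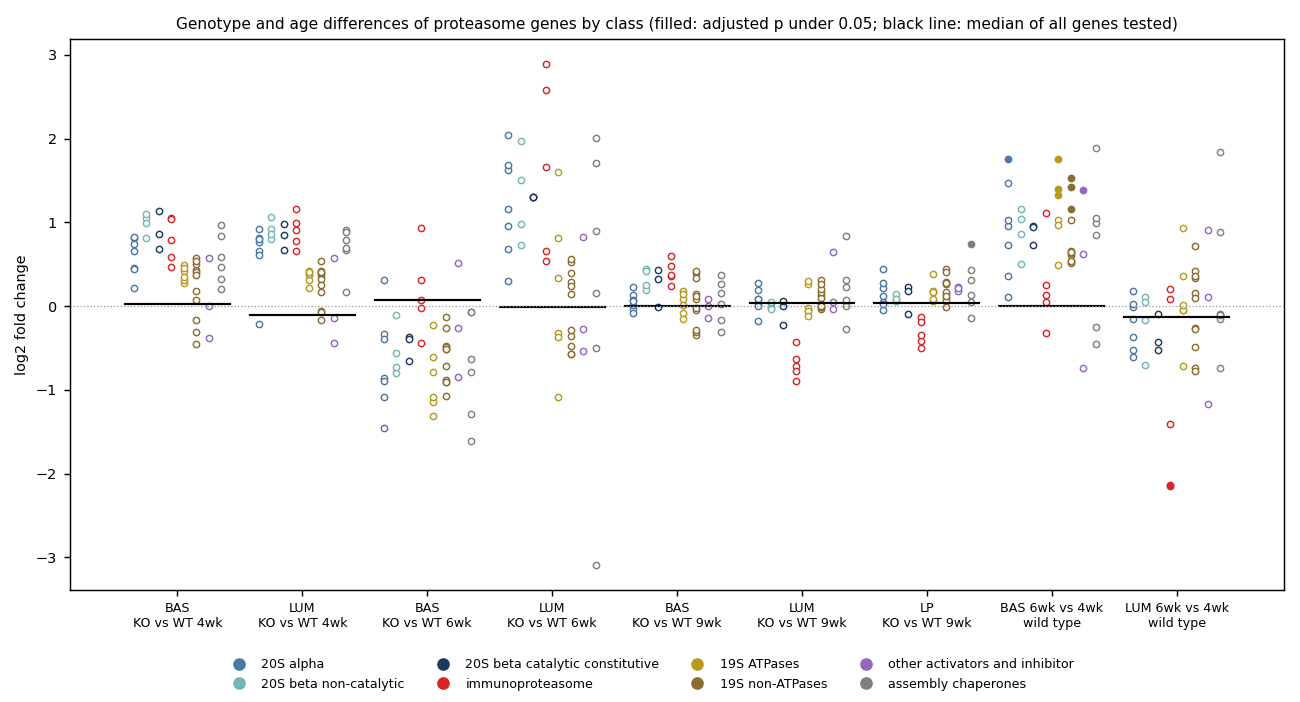
Log2 fold change (y) of each proteasome gene, colored by class, in the genotype comparisons (KO is Cdkn1b-/-, WT is Cdkn1b+/+) and in the comparisons of 6 with 4 weeks (x). Circles are genes, filled where an adjusted p was under 0.05, and black lines are medians of all genes tested. The 8 filled circles of BAS with age and the 1 of LP (Psmd5) lie above 0, and the filled circle of LUM with age (Psmb10) lies at -2.15.

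With age, Cdkn1b+/+ BAS cells had more transcripts of several proteasome genes. Most of those called were of the 19S cap, but the values of the core subunits were positive too. Between 4 and 6 weeks 8 of 46 genes (17.4%) rose and none fell, where 10.5% of all 12572 genes were called. Psmd11, a lid subunit, was at 152.1, 137.5 and 139.4 CPM at 4 weeks and at 359.4, 382.2 and 448.4 at 6 weeks (1.53 ± 0.27, edgeR adjusted p = 0.0027). Psmc5, an ATPase of the base, was at 107.9, 90.3 and 81.3 against 269.6, 258.0 and 375.4 CPM (1.75 ± 0.37, edgeR adjusted p = 0.0075). Neither overlapped between ages. The ATPases Psmc4 (1.40 ± 0.38) and Psmc2 (1.32 ± 0.37) and the cap subunits Psmd7 (1.42 ± 0.35) and Psmd4 (1.16 ± 0.33), a ubiquitin receptor, rose too. So did Psma5 (1.75 ± 0.50) of the core and the nuclear activator Psme3 (1.39 ± 0.35). The median was 0.85 over the 46 genes, against 0.00 over all genes. In the cap it was 1.17 over the 6 ATPases and 0.65 over the other 19S subunits. In the core it was 0.96 over the alpha subunits, 0.95 over the non-catalytic beta subunits and 0.95 over Psmb5, Psmb6 and Psmb7. Over the immunoproteasome genes it was 0.13. Psmb8 (0.13 ± 0.54), Psmb9 (-0.32 ± 0.57), Psmb10 (0.05 ± 0.45) Psme1 (0.25 ± 0.37), Psme2 (1.11 ± 0.48), Psmb5 (0.96 ± 0.48), Psmb6 (0.73 ± 0.47) and Psmb7 (0.95 ± 0.35) did not differ significantly. Leaving out any library of 4 weeks left 2 calls, Psmc5 and Psmd11, which were called under all 10 alternatives, and leaving out Cdkn1b+/+ BAS library 3 of 6 weeks, with the lymphoid markers, left 4 (Psmc5, Psmd11, Psmd7 and Psme3). Basal markers summed to 14704 to 17153 CPM at 4 weeks and 6654 to 9193 at 6 weeks, and fibroblast markers to 1062 to 5639 and 64.0 to 492. Depth was 18277080 to 20596627 counts at 4 weeks and 7985619 to 16390460 at 6 weeks, and the part of these shifts in the result was not tested. Without both libraries of 6 weeks that stood apart, 6 genes were called, among them Psmb9, which fell by 1.55.

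In Cdkn1b+/+ LUM cells 1 of 46 genes was called between 4 and 6 weeks, 2.17%, against 3.10% of all genes. Psmb10 fell from 71.4, 68.1 and 67.3 to 10.8 and 19.3 CPM (-2.15 ± 0.54, edgeR adjusted p = 0.039). Psmb8 was at 45.5, 63.4 and 57.2 against 12.9 and 11.2 CPM (-2.13 ± 0.66, edgeR adjusted p = 0.079), and Psmb9 differed by -1.40 ± 0.66. None of the 3 overlapped between ages. Psmb5 (-0.43 ± 0.54), Psmb6 (-0.10 ± 0.53), Psmb7 (-0.52 ± 0.40), Psme1 (0.09 ± 0.41) and Psme2 (0.20 ± 0.53) had smaller differences. The call on Psmb10 was lost when any of the 5 libraries was left out, and its value lay between -2.58 and -1.84 over 9 alternatives. DESeq2 called 4 genes, Psmb8, Psmb10 and Psmd3 lower and Psmd5 higher at 6 weeks. The ages were separate sets of libraries, so age and any difference in their handling cannot be told apart.

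E2 and strain had no detectable effect on the proteasome genes at this number of libraries. In BAS and in LUM edgeR called 0 of 46 genes for E2 against Control and for ACI against BN, and 0% of all genes in each of the 4 comparisons. At an unadjusted p under 0.05 there were 0 and 1 for E2 and 1 and 1 for strain, and DESeq2 called 0 in each. The members' median for E2 was 0.30 in BAS and 0.03 in LUM, against -0.18 and 0.01 over all genes, and for strain -0.11 and -0.02, against 0.02 and 0.03. Psmb8 in LUM was at 24.3, 30.4 (ACI) and 51.0 CPM (BN) in Control and at 100.1, 97.5 and 57.2 with E2. The treatments did not overlap, and the difference was 1.30 ± 0.50 (edgeR adjusted p = 1.00). Summed myeloid markers moved with it in ACI, at 39.6 and 81.3 CPM in Control and 362 and 489 with E2, but not in BN, at 444 and 127, and their part was not tested. Psmb5 in LUM was at 57.5, 55.0 and 43.1 CPM in Control and at 119.9, 85.3 and 66.5 with E2 (0.78 ± 0.38, edgeR adjusted p = 1.00). Psmb9 (0.27 ± 0.57), Psmb10 (0.91 ± 0.72), Psme1 (0.46 ± 0.36) and Psme2 (0.13 ± 0.43) were positive in LUM too, and Psmb6 (-0.25 ± 0.57) and Psmb7 (0.04 ± 0.42) lay near 0. In BAS the 8 genes differed by -0.13 to 0.58 with E2. Between strains they differed by -0.57 to 0.24 in BAS and by -0.78 to 0.47 in LUM. BN had 1 library per cell type and treatment, so its spread was taken from the ACI libraries and from the additive model. The E2-treated BN BAS library, with 16298 CPM of fibroblast markers, entered both BAS comparisons, and its part was not tested.

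Genes that work beside the proteasome are given by list, and those described as higher, lower, rising or falling were called by edgeR. Of 6 proteasome-linked genes tested, the 19S phosphatase Ublcp1 was higher in BAS at 4 weeks (1.62 ± 0.22) and at 9 weeks (0.67 ± 0.21), the only 1 called at either age. In BAS between 4 and 6 weeks the deubiquitinases of the cap, Usp14 (2.09 ± 0.32) and Uchl5 (1.73 ± 0.45), rose with the 19S genes. Of 5 genes known for regulating proteasome expression, Nfe2l2 was higher in BAS at 4 weeks (1.38), 6 weeks (1.25) and 9 weeks (1.28), and Ddi2, which activates Nfe2l1, was lower in BAS at 4 weeks (-1.54) and 9 weeks (-0.50).

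Of 9 antigen presentation genes tested, 3 were lower in BAS than in LUM at 4 weeks and 3 at 9 weeks, at both ages a smaller share than the 35.1% and 38.7% of all genes called. Tapbp, which loads peptide on MHC class I, differed by -2.48 ± 0.24 at 4 weeks and -1.22 ± 0.19 at 9 weeks. Erap1, which trims the peptides, differed by -1.11 ± 0.28 and -1.01 ± 0.16. In LP 5 of the 9 differed from LUM, with Erap1 higher and Tapbp, B2m, RT1-A1 and RT1-A2 lower, the RT1-A genes being close copies whose reads may be split unevenly. Of 18 interferon response genes, 6 were called at 4 weeks, 4 higher and 2 lower in BAS, and 5 at 9 weeks, 1 higher and 4 lower. Those shares were also below those of all genes. Irf1, a factor known to induce the immunoproteasome, was higher in BAS at both ages, by 1.05 ± 0.25 and 1.25 ± 0.32. At 9 weeks it was the 1 higher gene, and the other 4 called were lower in BAS. A link to the immunoproteasome genes was not tested.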

How the data were processed

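Per the labels and the study's methods, the authors made the deposited gene counts from single-end reads of low-input polyA libraries (SMARTer v4), aligned with STAR 2.5.1b to rn6 and counted with HTSeq on refGene. The kit does not mark strand. Groups came from the labels. Rows naming no gene held 47.2% to 77.0% of a library's reads and were left out of depth and tests. Using R 4.3.3, edgeR 4.0.16 (filterByExpr, TMM, quasi-likelihood F test, Benjamini-Hochberg over all genes) was fitted per experiment. CPM used TMM factors over all 48 libraries, and ratios a pseudocount of 0.5 CPM. At 9 weeks PNA+ and Cd49b+ libraries were fitted as LP. E2 and strain were fitted additively. Outside the libraries of 9 weeks the titles carry rat codes, and most codes are shared by a BAS and a LUM library. The main BAS against LUM fits treated such libraries as separate samples, and the code entered only as a replicate block in an alternative. At 9 weeks the labels do not say which libraries came from the same animal. The p-values thus measure the spread between these libraries.

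The members, classes and lists were chosen with earlier results of these data known. Named were the 8 catalytic and PA28 genes in each comparison and other members called, at most 6 a direction. Alternatives were RLE normalization, no low-count filter, DESeq2 1.42.0, replicate blocks, summed LP libraries, other fits and leaving out each library. Same-numbered libraries of a genotype at 9 weeks deviated together (12 pairs, r 0.320 to 0.881), so the numbers pair populations there. For libraries sharing a rat code r was 0.174 to 0.718 at 4 weeks, -0.007 to 0.0966 at 6 weeks and 0.113 to 0.215 in the E2 experiment. Across genotypes the numbers did not pair (4 pairs, r -0.354 to -0.0817). No library duplicated another in 28 pairs. The fits were tested on simulated data. ChIP-seq files were not used here. Some genes of the other lists are not reported here.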

Additional observations from a re-analysis of the deposited data

Results flagged for a closer look

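Psmd5 in Cdkn1b-/- PNA+ library 2 of 9 weeks was at 83.3 CPM, far from the other 3 Cdkn1b-/- progenitor libraries at 69.3 to 71.6. It was 1 of 18 groups of 4 checked, and chance marks about 1 in 20 such groups.

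For some genes the genotype difference pointed in opposite directions in a pair of comparisons without overlap of the genotypes in either. These differences between comparisons were not tested. Psme1 differed by -0.42 in LUM of 9 weeks, against 0.53 in LUM of 6 weeks, 0.78 in LUM of 4 weeks and 0.60 in BAS of 9 weeks. Psmd5 differed by 0.83 in LUM of 9 weeks and by -3.09 in LUM of 6 weeks. Psmb7 differed by 0.68 in BAS of 4 weeks and by 1.30 in LUM of 6 weeks, against -0.39 in BAS of 6 weeks. Groups of 2 or 3 libraries separate often, and 9 genes were checked in 10 pairs of comparisons.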

How the results depend on the processing

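Over 21 comparisons the number of proteasome genes called was recomputed under 259 alternatives, each a comparison under 1 setting, and no called gene turned its sign. The alternatives that left out a library came from 79 fits, each shared by the comparisons that used that library. DESeq2 called 1 gene for genotype in LUM and 1 for the LP against BAS effect at 9 weeks, 12 for LP against LUM, 5 for BAS against LUM at 4 weeks, 3 at 6 weeks and 6 in the E2 experiment. It called 2 for genotype in BAS and 5 in LUM at 6 weeks, and 4 for age in LUM. Under the replicate block the counts were 18 and 31 for BAS and LP against LUM at 9 weeks and 8 for BAS against LUM at 4 weeks, and the block changed no other call. A crossed block, added after seeing the data, gave 1 for genotype in LUM. Summed LP libraries left 0 for genotype, no filter left 5 for BAS against LUM at 9 weeks, and 4 and 6 weeks fitted together gave 4 for genotype in LUM of 6 weeks. Leaving out 1 library gave 3 to 5 for BAS and 2 to 9 for LP against LUM at 9 weeks, 3 to 9 for BAS against LUM at 4 weeks, 0 to 4 at 6 weeks, 0 to 10 for genotype in LUM of 6 weeks, 2 to 8 for age in BAS and 0 for age in LUM. Leaving out the libraries that stood apart, also added after seeing the data, gave 11 for BAS against LUM at 4 weeks and 1 at 6 weeks, 1 for genotype in BAS of 6 weeks and 3 for age in LUM. The cause of these changes was not tested. Groups of 2 or 3 libraries, and 1 for BN, limit what could be detected.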

Other observations

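The proteasome genes varied together from library to library. Around their group means, in 44 libraries of groups with at least 2, the median Pearson r over pairs of 31 constitutive subunit genes was 0.562. It was 0.694 over pairs of the 5 immunoproteasome genes, and the means of both sets had an r of 0.669. The points are libraries that differ in depth, and these values are a description. The genes most like the mean of the immunoproteasome genes, of 11133 with a mean of at least 1 CPM, were Banf1 (r 0.948), Edf1 (0.920), Atp5i (0.918), Mrpl23 (0.914) and Mrps28 (0.903).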
